A study of Mus musculus with 27 samples.

Results

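The RNA recovered with an antibody against the RNA-binding protein HuR was compared with total RNA in the mouse macrophage line RAW264.7, treated for 6 h with LPS and the compound TM7nox. The comparison used 8 of the 27 libraries of the series: 4 anti-HuR RNA immunoprecipitation (RIP) libraries and 4 total RNA libraries that carried the same treatment label and the replicate numbers 1 to 4. LPS, a bacterial lipopolysaccharide sensed by macrophages through Tlr4, was given at 1 µg/ml. TM7nox, one of the tanshinone mimics, was given at 10 µM. The 2 other treatments, used here only for comparison, were DMSO and LPS with DMSO (called LPS here), each with 4 RIP and 4 RNA libraries. No group carried a genetic change. Per the labels, 7 ng of RNA went into each library of the SMART-Seq Stranded kit. Nothing in the labels says that the replicates were separate cultures, so the p-values measure the spread between these samples, which may be technical.

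HuR is the product of Elavl1 and belongs to the ELAV family of RNA-binding proteins. Its preferred binding sites are stretches rich in U or in A and U, mostly in the 3′ UTRs of mRNAs. It moves between nucleus and cytoplasm, and is best known for stabilising mRNAs and promoting their translation. In macrophages its known targets include mRNAs of cytokines and other inflammatory genes, where it meets destabilising proteins such as tristetraprolin (Zfp36) on similar elements. Tanshinone mimics were developed as small molecules that interfere with the binding of HuR to RNA.

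The RIP libraries held 19816312 to 41449233 counts and the RNA libraries 16258731 to 26582325. A single control library from the same treatment, made with IgG, held 8873091. RIP and IgG RNA came from beads in an NP-40 lysate and total RNA from cell pellets, per the labels' protocols, so the antibody and the kind of extract cannot be told apart in RIP over RNA. The IgG library is therefore given beside the results, with no test. Of 17 macrophage markers, 16 had a mean of at least 1 CPM (counts scaled to a common library size over all libraries) in RNA, with a summed level of 3371 to 5998 CPM per library. The summed level of 22 markers of other cell types was 1.12 to 1.73 CPM in RNA and 3.29 to 5.03 CPM in RIP, with 6 of them at 0 in all RNA libraries. Their part in the results was not tested. The counts come from bulk lysates, so more cells with an RNA and more RNA per cell cannot be told apart.

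Most genes differed between RIP and total RNA, in both directions. Of 14311 genes tested, 10006 (69.9%) were called at an adjusted p (FDR) under 0.05, with 5031 (35.2%) higher and 4975 (34.8%) lower in RIP than in RNA. A log2 difference of 1 or more was found for 4366 genes (30.5% of those tested) on the higher side and 3352 (23.4%) on the lower side. The median log2 of RIP over RNA was -0.09, and the quartiles were -1.01 and 1.72, over genes that could pass the filter on low counts through their RIP level alone. All these values are relative to the typical gene. Scaling by total counts alone placed the median at -1.07 and called 3324 genes higher and 7903 lower. The median was 0.13 with RLE scaling (5519 higher, 4227 lower) and -0.17 with upper-quartile scaling (4897 higher, 5335 lower). DESeq2 called 5597 higher and 4313 lower, and edgeR with the replicate number as a block 5277 and 5349. With replicates 1 and 2 only there were 7896 calls (7665 in common with the 10006), and with replicates 3 and 4 only there were 9463 (8955 in common). The direction held for 9975 of 9977 and for 9831 of 9840 called genes that these subsets could test.

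Calls differed with the level in RNA. Among 3788 tested genes with a mean RNA level under 1 CPM, 49.5% were called higher and 5.39% lower. Such genes could pass the filter on low counts through RIP libraries alone, of any treatment. A gene kept through its RIP libraries with TM7nox would tend to be higher in RIP here. With the 8 libraries alone 12001 genes were tested. Among 1401 genes at 100 CPM or more in RNA, 29.1% were called higher and 55.6% lower, with a median of -0.69.

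**Figure D1:**
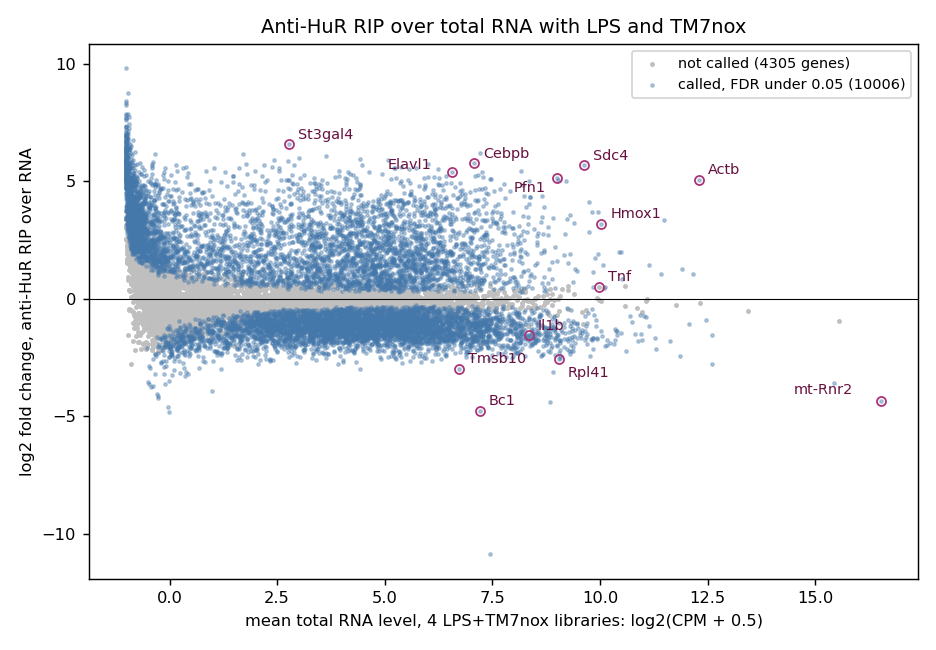
Each point is 1 of 14311 genes, with its mean level in the 4 total RNA libraries on the x axis, as log2(CPM + 0.5), and its log2 fold change of RIP over RNA on the y axis (blue, called; grey, not called; circles, genes named in the text). Actb (5.07) and Sdc4 (5.69) lie high at high RNA levels, Tmsb10 (-2.96) and Rpl41 (-2.54) lie low, and the lowest point is Rprl2 (-10.87).

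HuR's own mRNA was among the enriched mRNAs. Elavl1 (ENSMUSG00000040028, chr8:4332576-4375489, minus strand, overlapped by Ccl25 on the other strand) stood at 3881, 5166, 2965 and 3010 CPM in RIP replicates 1 to 4. In RNA it stood at 100, 106, 88.0 and 82.6 CPM, and in IgG at 79.3 CPM. Every RIP library lay far above every RNA library, and the IgG library lay just under them. The log2 fold change was 5.38 (SE 0.251, FDR 1.37e-15). The gene was neither deleted nor silenced in any group, so its level is no check of a label.

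The mRNAs of proteins that act on AU-rich elements, Elavl1 among them, were mostly higher in RIP. Of 17 such genes, all tested, 14 were called higher (82.4%, against 35.2% of all genes) and 2 lower, with a median log2 of 2.13, against -0.09 over all genes tested. The median of IgG over RNA for these genes was -0.03. With total counts alone, 9 of the 17 were called higher and 4 lower, with a median of 1.14. Rc3h2 encodes a roquin, which recruits deadenylases to constitutive decay elements. It stood at 1917, 2692, 2005 and 2195 CPM in RIP and at 56.3, 97.4, 82.0 and 82.5 CPM in RNA, a log2 of 4.84 (SE 0.235, FDR 2.66e-15). Khsrp encodes KSRP, which promotes decay of AU-rich mRNAs. It stood at 2693, 4303, 2686 and 4479 CPM in RIP and at 186, 163, 156 and 145 CPM in RNA, a log2 of 4.51 (SE 0.19, FDR 3.06e-16). For both genes the lowest RIP library lay far above the highest RNA library. Both were chosen for display after their values had been seen.

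Other members of that group were closer to the typical gene. Zfp36, the tristetraprolin gene (chr7:28076209-28079710), stood at 541, 971, 964 and 834 CPM in RIP and at 452, 496, 514 and 432 CPM in RNA. The groups were close but did not overlap, with a log2 of 0.86 (SE 0.23, FDR 0.00182), which became -0.15 (FDR 0.588) with total counts alone. Zfp36 was also not called with replicates 1 and 2 only (0.75, FDR 0.0638). Hnrnpa2b1, a nuclear ribonucleoprotein gene overlapped by Cbx3 and Nfe2l3 on the other strand, lay at 305, 252, 376 and 216 CPM in RIP and at 469, 449, 558 and 480 CPM in RNA. It was lower in RIP by a log2 of -0.71 (SE 0.166, FDR 0.000494). Zc3h12a, which encodes the endonuclease Regnase-1, was the other member called lower (-0.64), and Hnrnpd, the AUF1 gene, was not called (-0.19, FDR 0.264).

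Of all genes, Actb took the largest share of RIP counts. Actb, the beta-actin gene (ENSMUSG00000029580, chr5:142888870-142892509, minus strand), stood at 165749, 181035, 158955 and 137566 CPM in RIP and at 5107, 4815, 5194 and 4909 CPM in RNA. The IgG library, at 5095 CPM, lay within the range of the RNA libraries. The log2 of RIP over RNA was 5.07 (SE 0.267, FDR 1.18e-14). Actb took 9.82% ± 1.51 of RIP counts (SD, n = 4) and 0.584% ± 0.0406 of RNA counts. Actg1 encodes gamma-actin, a cytoplasmic actin of nearly the same protein sequence, and moved the other way. It stood at 177, 144, 336 and 155 CPM in RIP and at 423, 455, 750 and 606 CPM in RNA, a log2 of -1.42 (SE 0.261, FDR 3.39e-05). No RIP library reached the lowest RNA library. Actg1 was chosen after its value had been seen, and reads from the shared coding sequence could have been given to either gene or to neither.

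The actin cytoskeleton list held calls on both sides, as all genes did. Of 46 genes, all tested, 19 were called higher (41.3%, against 35.2% of all genes) and 21 lower (45.7%, against 34.8%), with a median of -0.13. By DESeq2 and with RLE scaling 19 were higher and 17 lower, with a median of 0.09, and the median was -1.14 with total counts alone. Pfn1, the gene of the actin monomer-binding protein profilin 1 (chr11:70540882-70545976, overlapped by predicted genes and by Rnf167), was the highest. It stood at 11052, 24980, 17255 and 15759 CPM in RIP and at 519, 551, 469 and 494 CPM in RNA, a log2 of 5.15 (SE 0.246, FDR 1.99e-15). Tmsb10, the gene of the actin-sequestering thymosin beta 10 (chr6:72934330-72935737), was the lowest. It stood at 14.5, 8.69, 17.4 and 11.7 CPM in RIP and at 71.5, 86.4, 129 and 135 CPM in RNA, a log2 of -2.96 (SE 0.364, FDR 9.14e-08). Neither gene showed any overlap between RIP and RNA. Marcks (4.56), Arpc1a (3.64) and Actr2 (3.46), of which the latter pair encode Arp2/3 complex subunits, were also called higher. Other subunits of the same complex did not follow: Arpc3 was called lower (-1.79), and Actr3 was not called (0.01).

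**Figure D2:**
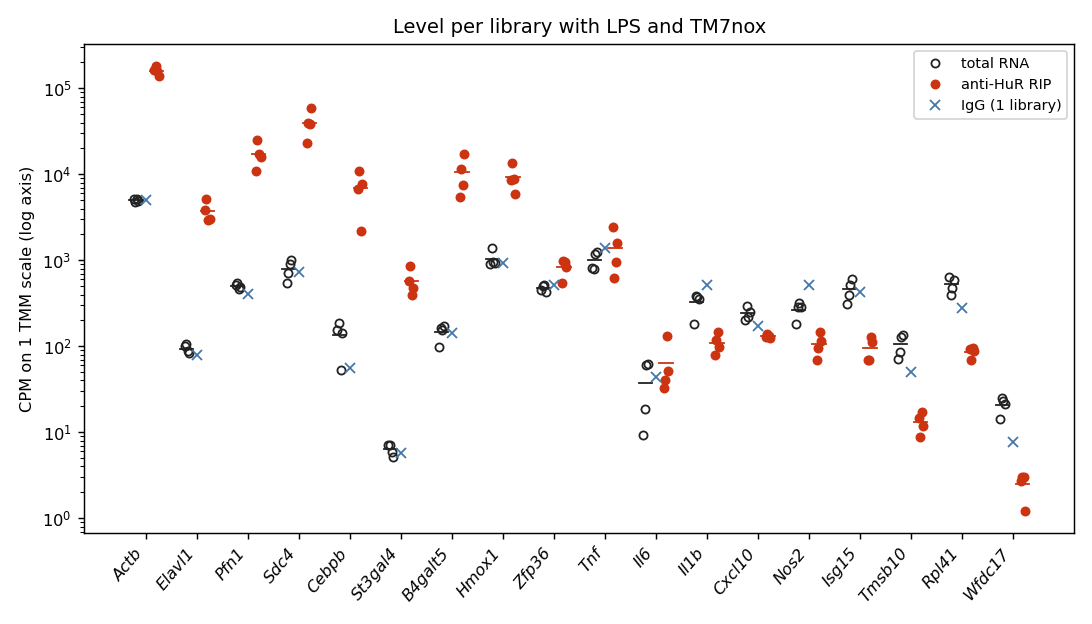
The level of 18 genes is plotted per library on a log axis of CPM (open circles, the 4 total RNA libraries; filled circles, the 4 anti-HuR RIP libraries; short lines, group means; crosses, the single IgG library). RIP libraries lie above all RNA libraries for the genes from Actb to Zfp36, overlap them for Tnf and Il6, and lie below them for the genes from Il1b to Wfdc17, while the IgG library stays closer to RNA than to RIP for the strongly enriched genes.

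The 3′ UTRs of several of these enriched and depleted mRNAs differed in their U-rich stretches. For each gene the 30 bases of its 3′ UTR with the most U were taken from the canonical transcript of GENCODE M39 on GRCm39. These windows are shown because they hold the contrast between genes of like function or of opposite recovery. They are written 5′ to 3′ on the mRNA strand with T for U, and capitals mark runs of 3 or more T.
Actb: gTTTTTTTTTTTTTTTTTTTTTTTTTTTTT
Actg1: tattcattcTTTaaTTTatgtaaggTTTTT
Pfn1: TTTTTTTTTTTTTTTTTTTTTTTTTTTTTT
Tmsb10: cacTTTgtctcttccaaaccccttctctgt
Elavl1: TTTTTTTTTTccTTTTcTTTTTTcTTTTTT
Khsrp: TTTTTTcTTTTTcTTTTTTTTTTTTTTTTT
Rc3h2: TTTTcTTTTctgtcTTTTTTTTTTTTTTTT
The Actb window (chr5:142889405-142889434, minus strand, exon 6) holds 29 T, and that of Actg1 (chr11:120236628-120236657, minus strand, exon 6) holds 18. The Pfn1 window (chr11:70541167-70541196, minus strand, exon 3) holds 30 T, and that of Tmsb10 (chr6:72934732-72934761, minus strand, exon 2) holds 12. Elavl1 (chr8:4339541-4339570, minus strand, exon 6) and Rc3h2 (chr2:37264681-37264710, minus strand, exon 21) have 26 each, and Khsrp (chr17:57328323-57328352, minus strand, exon 18) has 28. Of all 672874 windows of 30 bases tiled over these 3′ UTRs, with a mean of 8.86 T, 0.00208% held 29 or more. A window with 29 or more T was present in 0.801% of the genes, one with 26 or more in 5.96%, and one with 18 or more in 61.0%. A U-rich window is a description of the letters and not a mapped HuR site.

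Across coding genes, the density of U in the richest window ran with recovery. A 3′ UTR of at least 50 bases was annotated for 10981 of 11248 coding genes tested (97.6%). Some of them could have passed the filter on low counts through their RIP libraries alone. Their part in the values below was not tested. Among 631 genes with at most 12 U in any 30 bases, the median log2 of RIP over RNA was -1.19, and 7.45% were called higher. The median was -0.73 for the 2977 genes with 16 to 18 U and 0.02 for the 2937 genes with 19 to 21. It reached 1.43 for the 1670 genes with 22 to 24, 2.63 for the 833 genes with 25 to 27 and 3.15 for the 203 genes with 28 to 30, of which 81.8% were called higher and 6.9% lower. The medians passed from below to above 0 at the group with 19 to 21 U. In the IgG library the medians over RNA stayed between -0.15 and -0.03 for the same 7 groups of genes.

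**Figure D3:**
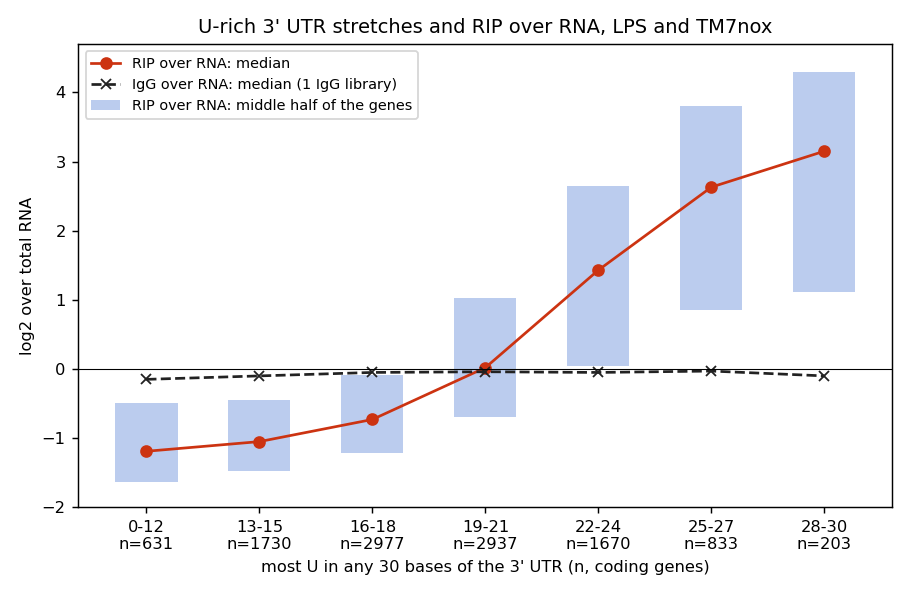
The x axis groups 10981 coding genes by the most U in any 30 bases of the 3′ UTR, with the number of genes per group; the y axis is the log2 level over total RNA. Red points are medians of RIP over RNA, blue boxes span the quartiles, and black crosses are medians of IgG over RNA from 1 library. The red medians rise from -1.19 to 3.15, while the crosses stay near 0. Genes could pass the filter on low counts through their RIP libraries alone.

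The richest window described recovery more closely than the other features of the mRNA. Across the 10981 genes, Spearman's rho with the log2 of RIP over RNA was 0.58 for the most U in 30 bases, 0.38 for 3′ UTR length, 0.32 for the U share of the whole 3′ UTR and 0.22 for copies of ATTTA per kb. Coding length gave 0.11. With the log2 of IgG over RNA these values were 0.04, 0.03, 0.07 and 0.06, and 0.43 for coding length. With the longest annotated 3′ UTR of each gene (11144 genes), rho was 0.52 for the most U in 30 bases, 0.26 for length and 0.34 for U share, and coding length gave 0.15 with IgG. The transcripts picked in that way often had short coding regions. In the middle 20% of genes by coding length the median was 466 bases, against 1374 with canonical transcripts. Coding length is thus uncertain there, and such a 3′ UTR can hold bases that are coding in other transcripts. Genes are not independent replicates, and these features depend on each other, since longer 3′ UTRs hold richer windows. Genes kept by the filter through their RIP libraries alone were not left out. The window feature was added after the sequences of enriched genes had been seen. Within the shortest 20% of 3′ UTRs (50 to 450 bases), the median was -1.25 in the 440 genes with the fewest U per window and -0.19 in the 440 with the most. Within the longest 20% (3004 bases or more) these medians were -0.44 and 2.72, and within the middle 20% (994 to 1775 bases) -0.93 and 2.12. The difference was thus present at both ends of length, and larger in the middle and longest 3′ UTRs than in the shortest. The groups with the most U were unlike, as they started at 17 U in the shortest 20% and at 25 U in the longest. ATTTA, the AU-rich pentamer searched on the mRNA strand, was present in 73.5% of the 3′ UTRs. The median was -0.94 in the 20% of genes with the lowest ATTTA density, all without a copy, and -0.01 in the 20% with the highest. It was 0.19 in the 20% next below the highest, so it did not rise steadily with density.

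The 10 most enriched genes under the naming rule, which asked for a called gene with a mean of at least 5 CPM and no overlap between the groups, ranged in log2 from 6.58 to 5.88. St3gal4 encodes a sialyltransferase and lies at chr9:34957872-35034889. It stood at 576, 859, 400 and 481 CPM in RIP and at 7.03, 7.18, 5.94 and 5.22 CPM in RNA, a log2 of 6.58 (SE 0.269, FDR 1.76e-16). B4galt5 encodes a galactosyltransferase of glycolipid synthesis and lies at chr2:167140364-167191291. It stood at 5446, 11694, 7503 and 17458 CPM in RIP and at 98.4, 162, 155 and 173 CPM in RNA, a log2 of 6.22 (SE 0.389, FDR 3.37e-13). The spread of RIP was wider for B4galt5 than for St3gal4. The IgG library held 5.72 CPM of St3gal4 and 144 CPM of B4galt5, both near their RNA levels. The others were Nfia (6.18), a transcription factor, Pabpn1 (6.17), the nuclear poly(A)-binding protein, Tspan5 (6.08), a tetraspanin, Arl2bp (6.02), Fbxl14 (5.95), an F-box protein, Med18 (5.92), a Mediator subunit, Arf5 (5.91), a small GTPase of vesicle traffic, and Lyrm4 (5.88), a protein of iron-sulfur cluster assembly. Nfia, Pabpn1, Tspan5 and Lyrm4 overlap other genes on the same strand. Pabpn1 stood at 65.8, 110, 102 and 481 CPM in RIP, and without RIP replicate 4 its log2 was 5.18.

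Of these 10 genes, 8 hold a window with at least 23 T, and Lyrm4 and Arl2bp do not. The windows of B4galt5, Tspan5 and Med18 are shown as examples of the most enriched mRNAs, and that of Lyrm4 as an exception among them.
B4galt5: TTTTTTTTTTTggtggTTTTTTTTTTTTTT
Tspan5: TTTTTTTTTTTcTTTcTTTcTTTTTTcTTT
Med18: TTTTTTTTTTTTTgTTTTTTTTTTgTTTTT
Lyrm4: gtaaacataattatctctctatccTTTTgt
These windows lie at chr2:167142705-167142734 (minus strand, exon 9), chr3:138608991-138609020 (plus, exon 8), chr4:132186181-132186210 (minus, exon 3) and chr13:36163465-36163494 (minus, exon 3). They hold 26, 26, 28 and 14 T. A window with at least 23 T was present in 18.5% of the genes and one with at least 14 in 90.7%. The richest window of Arl2bp has 17.

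The genes with the largest shares of RIP counts, which are not corrected for length, included Actb, Sdc4, Il1rn and Gm23935. Sdc4 encodes the cell surface proteoglycan syndecan 4. It stood at 23320, 39153, 38127 and 58463 CPM in RIP and at 544, 714, 900 and 1021 CPM in RNA, a log2 of 5.69 (SE 0.322, FDR 4.86e-14). Il1rn encodes the interleukin 1 receptor antagonist, a secreted inhibitor of interleukin 1 signalling. It stood at 16263, 37775, 34437 and 25622 CPM in RIP and at 1949, 3151, 3358 and 3018 CPM in RNA, a log2 of 3.36 (SE 0.433, FDR 2.09e-07). In both genes each RIP library lay above each RNA library. Gm23935, a predicted gene with no coordinates in the annotation used, overlapped between the groups and was not called (-0.93, FDR 0.146). It was called lower with total counts alone (-1.9, FDR 0.00214) and with no filter (-1.1, FDR 2.23e-06).

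Reported HuR targets, a list drawn from general knowledge of HuR, held calls on both sides. Of 49 genes, 48 were tested, and 24 were called higher (50%, against 35.2% of all genes) and 11 lower (22.9%, against 34.8%), with a median of 0.79. With total counts alone the median turned to -0.17, and 18 were called higher and 19 lower. Besides Elavl1 and Actb, the genes highest in RIP were Casp2 (4.12), an apoptotic caspase, Cdkn1b (3.82), a cyclin-dependent kinase inhibitor, Ptma (3.56), the prothymosin alpha gene, and Plau (3.47), the urokinase gene. Cycs, the cytochrome c gene (chr6:50539541-50543557), was the lowest. It stood at 26.4, 21.5, 27.3 and 24.5 CPM in RIP and at 116, 123, 123 and 127 CPM in RNA, a log2 of -2.23 (SE 0.187, FDR 1.02e-10). All of its RNA libraries lay above all of its RIP libraries.

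Several inflammatory panel genes did not pass the test. Tnf (chr17:35418357-35420983, minus strand), the tumour necrosis factor gene, stood at 2454, 620, 948 and 1570 CPM in RIP and at 811, 802, 1196 and 1242 CPM in RNA. The groups overlapped, and the IgG library, at 1380 CPM, lay within the RIP range. The log2 was 0.53 (SE 0.305, FDR 0.124), within a range of -0.40 to 1.03 over 18 alternatives, of which 4 gave a call: DESeq2, RLE scaling, and the fits without RIP replicate 2 (0.82, FDR 0.00951) or RIP replicate 3 (0.72, FDR 0.0396). Il6, the interleukin 6 gene, stood at 32.7, 40.8, 130 and 52.2 CPM in RIP and at 9.41, 18.6, 60.9 and 62.6 CPM in RNA. RNA of replicates 3 and 4 exceeded that of replicates 1 and 2, and RIP exceeded RNA in 3 of 4 same-numbered pairs. The log2 was 0.77 (SE 0.551, FDR 0.217), and 3 of 18 alternatives gave a call. These were the replicate number as a block (0.97, FDR 0.00429), replicates 1 and 2 alone (1.45, FDR 0.0364) and no filter (0.67, FDR 0.0047), while total counts alone turned it to -0.14. Il10 (0.18, FDR 0.682) and Ptgs2, the cyclooxygenase 2 gene (-0.09, FDR 0.829), overlapped between the groups and were not called. In CPM, RIP of Ptgs2 lay below RNA in every same-numbered pair, by little in replicate 3 (2601 against 2622 CPM). With total counts alone Ptgs2 was called lower (-1.06, FDR 0.00884).

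Other inflammatory panel genes were lower in RIP, and 1 was higher. Il1b (chr2:129206490-129213059, overlapped by Il1bos and Gm14023 on the other strand), the interleukin 1 beta gene, stood at 79.5, 117, 146 and 97.1 CPM in RIP and at 183, 389, 379 and 353 CPM in RNA. No library overlapped, and IgG stood at 514 CPM, above both groups. The log2 was -1.53 (SE 0.411, FDR 0.00191). Nos2, the inducible nitric oxide synthase gene (chr11:78811613-78851080), stood at 69.6, 96.3, 146 and 114 CPM in RIP and at 180, 290, 315 and 283 CPM in RNA, a log2 of -1.28 (SE 0.283, FDR 0.00028). Cxcl10, an interferon-induced chemokine gene overlapped by Art3 on the other strand, stood at 129, 139, 132 and 124 CPM in RIP and at 202, 294, 222 and 248 CPM in RNA. Its log2 was -0.83 (SE 0.266, FDR 0.00779), and with replicates 1 and 2 only it missed the threshold (FDR 0.0863). For these 3 genes the highest RIP library lay below the lowest RNA library. Ifnb1, the interferon beta gene, was called higher (1.62, FDR 0.018), although its levels in RIP (3.85, 6.91, 26.5 and 11.1 CPM) and RNA (0.149, 1.92, 7.05 and 6.55 CPM) overlapped. RIP exceeded RNA in 4 of 4 same-numbered pairs. It was no longer called without RIP replicate 3 (0.97, FDR 0.142), without RNA replicate 2 (1.38, FDR 0.0612) or with total counts alone (0.72, FDR 0.246).

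The windows of Tnf and Il1b are shown because both are AU-rich with few long runs of U.
Tnf: ttattaTTTattaTTTaTTTattaTTTatt
Il1b: cttacctaTTTaTTTatgtaTTTattgatt
They lie at chr17:35418657-35418686 (minus strand, exon 4) and chr2:129206722-129206751 (minus strand, exon 7), hold 22 and 18 T, and belong to 3′ UTRs with 8 and 4 overlapping copies of ATTTA. At least 22 T were found in the richest window of 24.6% of the genes.

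Over the list of cytokines and chemokines, 33 of 36 genes were tested, 9 were called higher (27.3%, against 35.2% of all genes) and 13 lower (39.4%, against 34.8%), and the median was 0.00 (-0.98 with total counts alone). Lif, the leukaemia inhibitory factor gene, was the highest. It stood at 869, 491, 2285 and 6187 CPM in RIP and at 57.7, 21.9, 176 and 205 CPM in RNA, a log2 of 4.46 (SE 0.837, FDR 4.38e-05), with higher levels in replicates 3 and 4 in both assays. Without RIP replicate 4 its log2 was 3.50. Ccl4 (3.70), a chemokine gene, and Osm (2.67), the oncostatin M gene, were also called higher. Ccl5, the RANTES gene, was the lowest. It stood at 230, 310, 489 and 288 CPM in RIP and at 1063, 1421, 1901 and 1816 CPM in RNA, a log2 of -2.20 (SE 0.321, FDR 1.38e-06).

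Toll-like receptor and NF-kB signalling genes held calls on both sides, and their balance depended on the scaling. Of 41 genes, all tested, 10 were called higher (24.4%, against 35.2% of all genes) and 14 lower (34.1%, against 34.8%), with a median of -0.08. DESeq2 and RLE scaling gave 16 higher and 12 lower (median 0.16), the 8 libraries alone 15 and 13, and total counts alone 6 and 29 (median -1.07). The kinase gene Irak2 was the highest, with 256, 500, 330 and 475 CPM in RIP and 31.5, 42.1, 39.1 and 36.8 CPM in RNA, a log2 of 3.44 (SE 0.242, FDR 3.21e-12). The LPS receptor gene Tlr4 (2.64), the adaptor Tirap (2.16), the NF-kB subunit Rel (1.95) and the inhibitor Nfkbia (1.83) were called higher. The co-receptors of Tlr4 were called lower, Cd14 by a log2 of -1.96 and Ly96 by -0.78. So were the adaptors Myd88 (-0.87) and Ticam1 (-1.17). The richest window of Irak2 holds 27 T.

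Immediate-early transcription factor genes held more higher than lower calls. Of 25 genes, all tested, 13 were called higher (52%, against 35.2% of all genes) and 7 lower (28%, against 34.8%), with a median of 1.34, which was 0.37 with total counts alone. Cebpb, the gene of C/EBP beta (chr2:167530835-167532338, overlapped by Peds1 on the other strand), was the highest. It stood at 6732, 10954, 2216 and 7717 CPM in RIP and at 153, 189, 52.5 and 143 CPM in RNA, a log2 of 5.77 (SE 0.555, FDR 1.35e-09). Replicate 3 was the lowest in both assays. Its relative Cebpd was the lowest of the list, at 37.4, 28.6, 33.6 and 28.4 CPM in RIP and 117, 104, 80.7 and 84.3 CPM in RNA, a log2 of -1.52 (SE 0.156, FDR 4.4e-09). The richest windows of Cebpb and Cebpd hold 26 and 18 T. Jund (3.19), Klf6 (3.12), Myc (2.72) and Fos (2.62) were called higher, Junb (-0.94) and Atf3 (-1.25) lower, and Jun was not called (0.12).

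Interferon response genes were mostly depleted. Of 39 genes, all tested, 28 were called lower (71.8%, against 34.8% of all genes) and 4 higher (10.3%, against 35.2%), with a median of -1.06. In IgG over RNA their median was 0.28. Isg15, the gene of a ubiquitin-like modifier (chr4:156283883-156285303), was the lowest. It stood at 69.1, 69.1, 128 and 113 CPM in RIP and at 312, 397, 516 and 614 CPM in RNA, a log2 of -2.24 (SE 0.34, FDR 2.47e-06). Trim30a, a TRIM protein gene (chr7:104058232-104114407), was the highest. It stood at 3800, 6200, 4958 and 5563 CPM in RIP and at 277, 350, 349 and 333 CPM in RNA, a log2 of 4.03 (SE 0.197, FDR 3.01e-15). Their windows, shown as the extremes of the list, hold 9 and 24 T.
Isg15: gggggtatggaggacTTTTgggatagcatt
Trim30a: TTTTcTTTgTTTgTTTcaTTTTTcTTTTTT
They lie at chr4:156283966-156283995 (minus strand, exon 2) and chr7:104058953-104058982 (minus strand, exon 8). Rsad2 (1.28) and Gbp7 (1.07) were also called higher.

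Antioxidant genes, which include Hmox1, were mostly called lower, while Hmox1 itself was called higher. Hmox1 encodes heme oxygenase 1, which breaks down heme (chr8:75820241-75827217, plus strand). It stood at 8647, 13732, 8798 and 5960 CPM in RIP and at 911, 1373, 967 and 933 CPM in RNA, with 929 CPM in IgG. The lowest RIP library was several-fold above the highest RNA library, with a log2 of 3.21 (SE 0.269, FDR 1.02e-10). Of 25 Nrf2 antioxidant genes 23 were tested, 5 were called higher (21.7%, against 35.2% of all genes) and 15 lower (65.2%, against 34.8%), and the median was -1.02. Gsr, the glutathione reductase gene, was the highest, with 4806, 7902, 3671 and 5185 CPM in RIP and 186, 188, 127 and 121 CPM in RNA, a log2 of 5.19 (SE 0.231, FDR 6.64e-16). The remaining genes called higher were Slc7a11 (2.80), Nqo1 (2.28) and Txnrd1 (1.89). Gstm1 (-1.96), a glutathione transferase gene, was the lowest of the list.

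The stress response lists fell on the depleted side. Of 25 Atf4 target genes 24 were tested, with 4 higher (16.7%, against 35.2% of all genes), 15 lower (62.5%, against 34.8%) and a median of -1.0. Slc7a5 and Slc3a2 encode the light and heavy chain of 1 amino acid transporter and lay on opposite sides. Slc7a5 stood at 1154, 1625, 1137 and 2171 CPM in RIP and at 260, 221, 183 and 205 CPM in RNA, a log2 of 2.89 (SE 0.21, FDR 6.54e-12). Slc3a2, overlapped by Snhg1 on the other strand, stood at 222, 220, 271 and 221 CPM in RIP and at 775, 712, 853 and 883 CPM in RNA, a log2 of -1.73 (SE 0.151, FDR 2.06e-10). Of 22 heat shock genes 20 were tested, with 2 higher (10%), 14 lower (70%) and a median of -1.36, against the same 35.2% and 34.8% of all genes. The transcription factor gene Hsf2 was the highest (3.95, FDR 1.16e-11). Hspa5, the gene of the endoplasmic reticulum chaperone BiP, was the lowest, with 652, 482, 966 and 555 CPM in RIP and 3938, 2486, 4218 and 4105 CPM in RNA, a log2 of -2.42 (SE 0.265, FDR 1.36e-08).

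Slc3a2 and Hspa5 show that a U-rich window did not always go with recovery, and their windows are shown for that reason.
Slc3a2: tcTTTTTTTTTTTTTTTTTTTTTTTTTTTT
Hspa5: TTTTcTTTTTcTTTTTTTacTTTTTTTTTT
They lie at chr19:8684785-8684814 (minus strand, exon 9) and chr2:34668660-34668689 (plus strand, exon 8) and hold 29 and 26 T. Among all genes with 25 to 27 T in the richest window, 10.2% were called lower.

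Ribosomal protein and oxidative phosphorylation genes were called lower nearly throughout, and most histone genes were. Of the 77 cytosolic ribosomal protein genes, 74 were called lower (96.1%, against 34.8% of all genes) and 0 higher (against 35.2%) by edgeR, and 70 lower and 1 higher by DESeq2. The latter was Rpl24 (1.32, FDR 0.0541 by edgeR, at a mean of 0.745 CPM in RIP), named after its value was seen and also called with RLE scaling and with the replicate block. Their median was -1.69, against -0.50 for IgG over RNA. Rpl41, the lowest, stood at 93.8, 69.4, 95 and 87.1 CPM in RIP and at 634, 392, 481 and 597 CPM in RNA, a log2 of -2.54 (SE 0.28, FDR 1.56e-08). Rps2 was the called member nearest to the typical gene (-0.60, FDR 0.025). Its call was lost by DESeq2 (-0.38, FDR 0.103), with RLE scaling (-0.38, FDR 0.104), without RIP replicate 1 (-0.46) or 2 (-0.49) and without RNA replicate 3 (-0.56) or 4 (-0.54). Of 47 nuclear-encoded oxidative phosphorylation genes 46 were called lower (97.9%, against 34.8% of all genes) and 0 higher by edgeR, and 0 were higher with total counts alone. Their median was -1.78, and that of IgG over RNA was -0.33. Atp5e, an ATP synthase subunit gene, was the lowest (-2.49, FDR 5.32e-06), and Ndufs3, a complex I subunit gene, was the highest called (-0.98, FDR 0.00297), though not with replicates 1 and 2 only (-0.81, FDR 0.197). Of 47 replication-dependent histone genes tested, of 55, 35 were lower (74.5%, against 34.8% of all genes), 9 were not called and 3 were higher (6.38%, against 35.2%), with a median of -1.58 and of -0.90 for IgG over RNA, and H2ac10 (4.51) and H4c3 (-2.34) were their extremes.

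Glycolytic genes were mostly lower in RIP. Of 19 genes, all tested, 16 were called lower (84.2%, against 34.8% of all genes) and 3 higher (15.8%, against 35.2%), with a median of -1.34. The 3 higher genes were those of hexokinase 2 (Hk2), the glucose transporter Slc2a1 (1.90) and the regulatory enzyme Pfkfb3 (1.70). Hk2 stood at 170, 317, 314 and 495 CPM in RIP and at 53.6, 71.3, 105 and 94.3 CPM in RNA, a log2 of 2.04 (SE 0.292, FDR 1.01e-06), and at 161 CPM in IgG. The lactate exporter gene Slc16a3 was the lowest (-2.01, FDR 1.58e-09), and Gapdh was called lower at -1.91.

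Lysosomal genes and markers of the macrophage lineage were lower as well. Of 38 lysosomal and secretory-pathway genes 37 were tested, with 29 lower (78.4%, against 34.8% of all genes), 7 higher (18.9%, against 35.2%) and a median of -1.49. The cathepsin genes Ctsl (-2.38) and Ctsc (2.91) were the extremes. Ctsl stood at 124, 83.8, 94.9 and 59.3 CPM in RIP and at 611, 465, 430 and 484 CPM in RNA, and Ctsc at 471, 388, 329 and 252 CPM in RIP and at 56.9, 38, 56.4 and 49.7 CPM in RNA. Neither overlapped between the groups. Of 17 macrophage markers 13 were called lower (76.5%, against 34.8% of all genes) and 1 (5.88%, against 35.2%), Msr1, the scavenger receptor gene, higher (0.30, FDR 0.0369), which turned to -0.70 (FDR 7.41e-05) with total counts alone. Msr1 was called higher in 8 of 18 alternatives. It lost its call without RNA replicate 1 (0.26) or 4 (0.28), without RIP replicate 2 or 3 (0.29 each), with replicates 1 and 2 (0.30) or 3 and 4 only (0.26), with upper-quartile scaling (0.22), without mitochondrially encoded genes (0.24) and with no filter (0.14). Cd68 was the lowest of them (-1.94, FDR 9.45e-07). Their summed level was 1086 to 2198 CPM in RIP, below the RNA range given above, and 3575 CPM in IgG.

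Translation factor genes held calls on both sides, and their share of higher calls was near that of all genes. Of 26 genes, all tested, 9 were called higher (34.6%, against 35.2% of all genes) and 15 lower (57.7%, against 34.8%), with a median of -0.62. DESeq2 and RLE scaling gave 12 lower and a median of -0.40. Eif4a1, the gene of the helicase eIF4A1, was the highest (3.25, SE 0.22, FDR 1.51e-12). Eif4e, the gene of the cap-binding protein, had a log2 of 3.22, and Eif4g1, the scaffold gene of the same complex, -0.46. Eef1d, an elongation factor gene, was the lowest (-2.18, FDR 3.08e-10). Among Zfp-named zinc finger genes 283 of 367 were tested, 97 were called higher (34.3%, near the 35.2% of all genes) and 68 lower (24%, against 34.8%), and the median was 0.09. DESeq2 gave 113 higher and 43 lower, and total counts alone 61 and 150 (median -0.87). Zfp26 (4.53) and Zfp143 (-1.44) were their extremes.

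**Figure D4:**
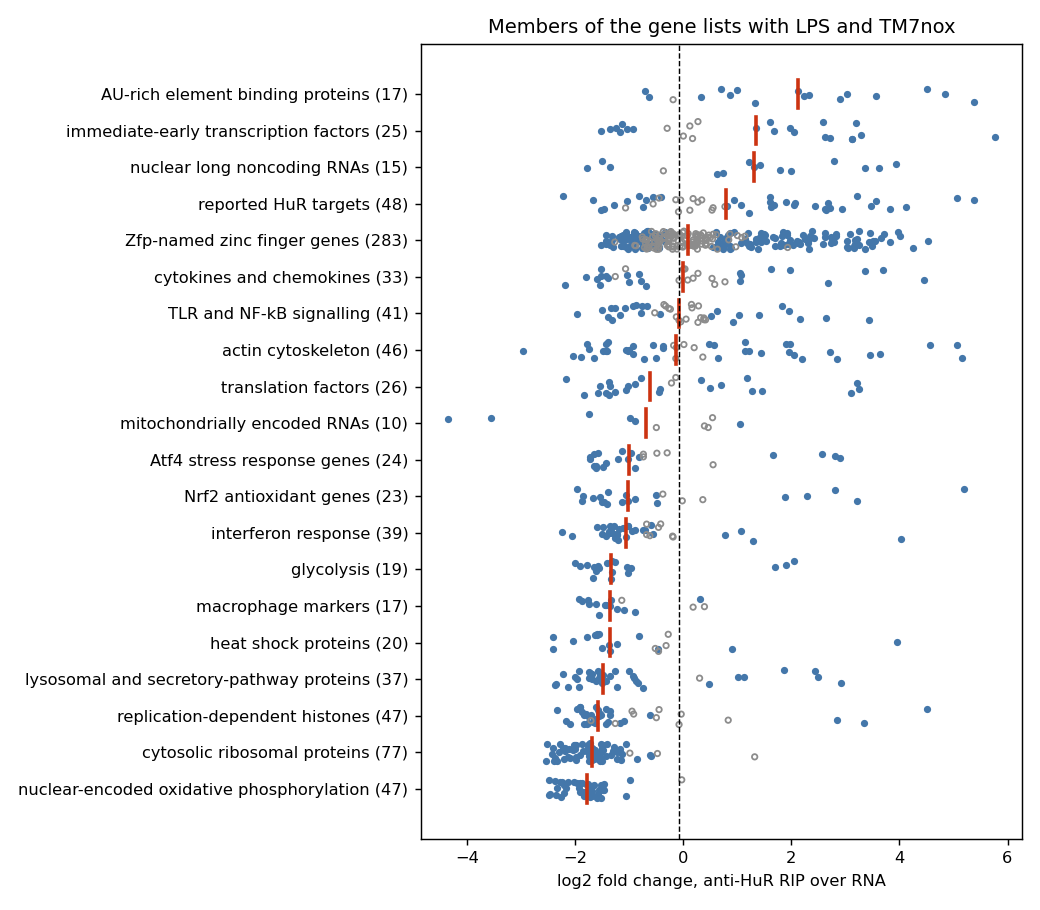
Each point is a tested member of a gene list (number tested in brackets) at its log2 fold change of RIP over RNA (filled, called; open, not called); red bars are list medians and the dashed line is the median of all genes tested, -0.09. Medians run from -1.78 for nuclear-encoded oxidative phosphorylation to 2.13 for AU-rich element binding proteins, and single members lie far to the right in most lists.

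By class of RNA, most RIP counts were coding mRNA, whose share was larger than in total RNA, with IgG in between. Coding mRNAs other than ribosomal protein and histone mRNAs took 95.3% ± 0.94 of RIP counts and 69.2% ± 2.87 of RNA counts (SD, n = 4 each), and 86.0% in IgG. Mitochondrially encoded RNAs took 1.72%, 0.742%, 1.07% and 0.748% in RIP and 16.4%, 19.4%, 17.9% and 15.9% in RNA, with 5.31% in IgG (95% Wilson interval 5.29 to 5.32, counting error only). Small noncoding RNAs took 2.09% ± 0.517 in RIP and 7.88% ± 2.87 in RNA (SD, n = 4 each), and pseudogenes 0.403% ± 0.0582 and 0.832% ± 0.0358. The RIP and RNA libraries did not overlap in any of these classes, nor for ribosomal protein or histone mRNAs. Each of these 6 differences had an exact two-sided permutation p of 0.0286 (adjusted 0.0333 over 7 classes), the smallest that 4 libraries against 4 can give. As differences of same-numbered libraries each had an exact p of 0.125, the smallest that 4 pairs can give. With mitochondrially encoded genes left out of the totals, the coding share differed by 12.5 percentage points in place of 26.1. Long noncoding RNAs took 0.400% ± 0.0589 in RIP and 0.360% ± 0.0423 in RNA (SD, n = 4 each), and this difference did not pass the exact permutation test (p = 0.286), with RIP above RNA in 4 of 4 same-numbered pairs (exact paired p = 0.125). The counts of genes called ran differently from the shares. Of 1720 long noncoding RNA genes tested 61.2% were called higher and 4.19% lower (median 2.19), of 216 small noncoding RNA genes 39.8% and 13.4% (median 0.71), and of 11117 other coding genes 31.2% and 39.9% (median -0.28). The filter could keep a gene of low RNA level for its RIP counts alone, so nothing is read from the noncoding gene counts.

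Mitochondrial ribosomal RNAs and several small RNAs were lower in RIP. The 2 mitochondrial ribosomal RNAs were among the genes lowest in RIP, mt-Rnr2 at 7215, 2735, 4735 and 2942 CPM in RIP and 84050, 103641, 101071 and 86521 CPM in RNA, a log2 of -4.35 (SE 0.588, FDR 4.25e-07), and mt-Rnr1 at -3.56. Of 37 mitochondrially encoded RNAs 10 were tested, 5 were called lower (50%, against 34.8% of all genes) and 1 (10%, against 35.2%), mt-Nd6, higher (1.05, FDR 0.0149). DESeq2, RLE scaling, the replicate block and the fit without RNA replicate 2 each called 3 of the 10 higher, and total counts alone called 0 higher and 7 lower. The protein-coding mt-Nd6 lies opposite mt-Nd5 on the other strand and was not called without RNA replicate 1 (0.91) or RIP replicate 4 (0.81), with replicates 1 and 2 only (0.66, FDR 0.279) or with total counts alone (0.05). It stood at 561, 549, 523 and 1018 CPM in RIP, at 257, 475, 289 and 315 CPM in RNA and at 700 CPM in IgG, which lay within the RIP range. Bc1, a small cytoplasmic RNA, stood at 7.37, 4.94, 3.62 and 3.99 CPM in RIP and at 313, 133, 53.5 and 90.1 CPM in RNA, a log2 of -4.76 (SE 0.695, FDR 1.41e-06), which was -4.17 without RNA replicate 1. The lowest value of all was that of Rprl2, an RNase P RNA-like gene, at -10.87 (FDR 6.18e-05), and it rested on RNA replicate 1 at 695 CPM, while the other RNA libraries held 0.903, 1.83 and 0.948 CPM. The RIP libraries held 6 counts of Rprl2 in all, at most 0.114 CPM, so its log2 also rests on a group near the floor. Its log2 was -3.69 to -12.45 over 18 alternatives. Its relative Rprl3 had a log2 of -4.37 (FDR 6.09e-06), also with RNA replicate 1 far above the rest, at 1197 CPM against 134 to 322. Without that library the values were -3.93 for Rprl2 and -3.38 for Rprl3. The IgG library stood at 22424 CPM for mt-Rnr2 and 9802 CPM for mt-Rnr1, against RNA means of 93821 and 44252 CPM. For both genes, and for Bc1, Rprl2 and Rprl3, IgG lay above all RIP libraries and below all RNA libraries. Part of their difference from RNA was thus also present with IgG, in 1 library and with no test.

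Among coding genes under the rule, Wfdc17 (-2.98), Tmsb10 (-2.96), Pet100 (-2.70), an assembly factor of cytochrome c oxidase, the acute-phase gene Saa3 (-2.67) and Rbis (-2.64) were the lowest. Wfdc17 stood at 2.71, 3.03, 3.05 and 1.22 CPM in RIP and at 14.3, 24.8, 23.0 and 21.5 CPM in RNA. Saa3 stood at 10.9, 8.82, 6.48 and 7.73 CPM in RIP and at 63.8, 65.2, 47.3 and 51.5 CPM in RNA. The IgG library lay between RIP and RNA for both genes, at 7.66 and 29.2 CPM. The richest windows of these 5 genes hold 12 to 18 T.

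A short list of nuclear and host long noncoding RNAs was also examined. Of 18 such genes 15 were tested, with 11 called higher (73.3%, against 35.2% of all genes) and 3 lower (20%, against 34.8%), and the median was 1.30 and 0.21 for IgG over RNA. A gene could pass the filter through its RIP level alone, and without the filter 10 of 18 were higher (55.6%, against 13.4% of all genes in that fit), with a median of 0.79. With total counts alone 5 were higher and 4 lower, with a median of 0.30. Tug1 stood at 359, 420, 331 and 508 CPM in RIP and at 17.4, 31.1, 32.2 and 29.1 CPM in RNA, a log2 of 3.93 (SE 0.253, FDR 5.64e-13). Malat1, a nuclear RNA, was called higher by 0.73 (FDR 0.0317) and stood at 973 CPM in IgG, near its RIP mean of 1044. Gas5, which hosts several snoRNAs on the same strand, was the lowest (-1.78, FDR 1.82e-07).

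RIP over RNA with TM7nox was set beside RIP over RNA with LPS, with which it shares no library. Across 14311 genes, which are not independent replicates, Pearson's r between their log2 values was 0.94, and 91.2% of genes lay within a log2 of 1 of each other. Of the genes called with TM7nox, 8550 were also called with LPS, which is 85.4% of the former and 93.9% of the 9109 called with LPS (63.7% of those tested, 32.9% higher and 30.8% lower). All but 3 of them had the same direction (8547). With DMSO, r was 0.93, and the 9024 genes called in both were 90.2% of the calls with TM7nox and 89.6% of the 10075 calls in DMSO (70.4%, with 37.0% higher and 33.4% lower). The medians of the richest-window groups ran from -0.94 to 2.80 in LPS and from -1.08 to 3.02 in DMSO.

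**Figure D5:**
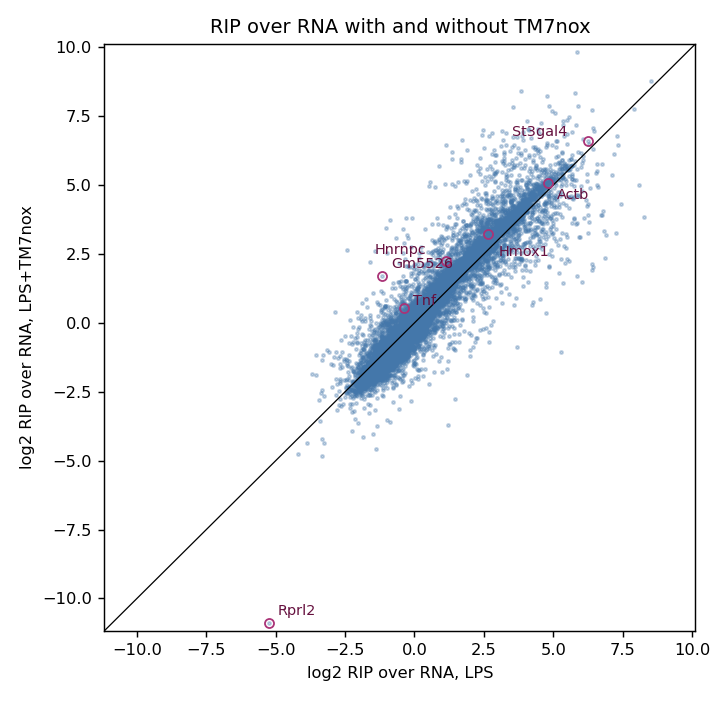
Each point is 1 of 14311 genes at its log2 fold change of RIP over RNA in LPS (x axis) and in LPS with TM7nox (y axis), on equal scales with the line of equality. Points follow the line, with r of 0.94; Gm5526 lies above it and is the single gene called for a difference.

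A change of RIP over RNA between TM7nox and LPS, tested as an interaction, was called for 1 of 14311 genes (0.00699%) by edgeR. At an unadjusted p under 0.05 there were 771 genes, where a share of 0.05 of all genes is expected with no change at all. DESeq2 called 3, and edgeR with the replicate block called 2. Leaving out RIP replicate 1 of TM7nox gave 2, and leaving out RIP replicate 3 of LPS gave 3. The gene was Gm5526, a processed pseudogene (chr1:45896492-45896914, minus strand, within another gene on the same strand), named here after its value was seen. It stood at 11.1, 13.8, 13.3 and 14.7 CPM in RIP and at 5.15, 2.93, 4.7 and 4.05 CPM in RNA with TM7nox. With LPS its mean was 0.982 ± 0.327 CPM in RIP and 2.23 ± 0.513 CPM in RNA (SD, n = 4 each). RIP over RNA was thus 1.72 with TM7nox and -1.17 with LPS, a change of 2.89 (FDR 0.00047). Reads of a processed pseudogene can be shared with its parent gene, so this value is uncertain. Elavl1 (0.31, FDR 0.894) was not called for a change, and neither were the other 11 panel genes. The SE of this change ran from 0.295 for Elavl1 to 0.816 for Ifnb1 over the panel. A missing call thus does not show that a panel gene was unchanged. Each library took 7 ng of RNA and was scaled to the typical gene. A uniform change in recovered RNA could therefore not appear in r or in the tests against LPS and DMSO, and was not tested.

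Hnrnpc, which encodes a U-tract-binding nuclear ribonucleoprotein (chr14:52310561-52341614), was the gene added by the replicate block. It stood at 506, 716, 608 and 713 CPM in RIP and at 134, 133, 157 and 138 CPM in RNA, a log2 of 2.24 (SE 0.154, FDR 2.15e-12). With LPS it was at 370 ± 43.1 CPM in RIP and 166 ± 20.1 CPM in RNA, and in DMSO at 222 ± 19.3 and 144 ± 7.55 CPM (SD, n = 4 each). The RIP libraries of the 3 treatments did not overlap, while the RNA libraries did. The change against LPS was 1.08, with an FDR of 0.158 without the block and of 0.00133 with it. Against DMSO it was 1.48 (FDR 0.000982).

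Against DMSO, 7 of 14311 genes (0.0489%) were called by edgeR for a change of RIP over RNA, 4 higher (0.028%) and 3 lower (0.021%) with TM7nox. At an unadjusted p under 0.05 there were 891, where a share of 0.05 of all genes is expected with no change at all. DESeq2 called 41, and edgeR with the replicate block called 37, 17 higher and 20 lower, including all 7. Tnf was the panel gene among them, with a change of -3.05 (FDR 0.001). In DMSO its RIP libraries stood at 571 ± 134 CPM and its RNA libraries at 52.4 ± 17.0 CPM (SD, n = 4 each), a log2 of 3.58, against 0.53 with TM7nox and -0.36 with LPS. Its mean RNA level was 1013 CPM with TM7nox and its mean RIP level 1398 CPM, so RNA lay further above DMSO than RIP did. In IgG it stood at 48.6 CPM in DMSO, within the range of the RNA libraries, and at 1380 CPM with TM7nox, above the highest of them.

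Eno2, the neuronal enolase gene, changed by -3.54 (FDR 0.00366), from 14.8 ± 4.25 CPM in RIP and 1.23 ± 0.569 CPM in RNA in DMSO to 2.31 ± 1.69 and 2.41 ± 0.842 CPM with TM7nox (SD, n = 4 each). Slfn2, a schlafen gene, changed by 1.91 (FDR 0.0287) and stood at 1163, 1635, 1740 and 1852 CPM in RIP and at 559, 704, 722 and 732 CPM in RNA with TM7nox. Pola2, a DNA polymerase alpha subunit gene, changed by 2.44 (FDR 2.75e-06), from a RIP over RNA of -1.52 in DMSO to 0.92 with TM7nox, the latter becoming -0.10 with total counts alone, under which Slfn2 also lost its call in RIP over RNA (0.29, FDR 0.27). Its RIP level was 13.6 ± 1.56 CPM in DMSO and 62.1 ± 14.2 CPM with TM7nox (SD, n = 4 each), with no overlap. Hnrnpc (1.48) and Gm5526 (3.36) were the other 2 called higher. A630001G21Rik (-1.07, FDR 0.0336), named after its value was seen, was the other called lower. With LPS, RIP over RNA of Eno2, Slfn2 and Pola2 was -0.35, 1.35 and 1.02, against 0.00, 1.29 and 0.92 with TM7nox. Without RIP replicate 1 of TM7nox 13 genes were called against DMSO.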

How the data were processed

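The authors deposited 1 table of raw read counts per gene for 27 libraries, whole numbers with no normalization, for 55483 Ensembl mouse genes. The submitters' processing notes name FastQC 0.11.9, STAR, HTSeq and DESeq2 and the build GRCm39, with no role or order. For the annotation release and the strand setting of the counting, the answer is not given in the sources used here. Although the kit is stranded, per the labels' protocols, overlapping genes are named because reads could have gone to either. Of the identifiers, 51731 (93.2%) matched GENCODE M39, which gave the GRCm39 coordinates and 3′ UTRs.

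Counts of 24 libraries (4 RIP and 4 RNA in each of 3 treatments) were fitted together with 6 group means in edgeR 4.0.16 (R 4.3.3), with TMM scaling, filterByExpr at a minimum count of 10, quasi-likelihood tests (two-sided) and Benjamini-Hochberg adjustment over all genes tested. All FDRs of single genes are from this test. CPM values are on 1 TMM scale over 27 libraries. The script was tested on simulated data with known changes. Depth was 16258731 to 41449233 counts in the 8 libraries compared, so a value under 1 CPM rests on few counts. The labels name no molecular identifiers, so intervals cover counting error only. No pair of replicates agreed within sampling noise (chi-square per gene 50.3 to 192). Same-numbered RIP and RNA libraries deviated together (correlations of 0.34, 0.46, 0.41 and 0.37 with TM7nox, each number best matched by its own), so the numbers were taken to pair the samples. The main fit held no replicate block, so its FDRs do not use this pairing. With the block, given as an alternative, 10626 genes were called in RIP over RNA in place of 10006, and 37 against DMSO in place of 7.

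Named genes were a panel of 12 (Actb, Cxcl10, Elavl1, Hmox1, Ifnb1, Il10, Il1b, Il6, Nos2, Ptgs2, Tnf and Zfp36), the 10 called genes with the largest change each way (mean of at least 5 CPM, no overlap between groups, no predicted symbol, no gene annotated as snoRNA, snRNA, scaRNA, miscellaneous RNA, mitochondrial tRNA, miRNA or rRNA other than mitochondrial; Bc1 and the ribozyme genes Rprl2 and Rprl3 have other annotations), the called extremes of each list, the 5 largest shares of RIP counts and the 3 largest called changes each way against LPS and DMSO. The comparison, panel, lists and rule were chosen with earlier results of these data known. Actg1, Khsrp, Rc3h2, Gm5526, A630001G21Rik and the list members given with a log2 value only were named after their values were seen. Genes with another annotated gene on the same strand, between which reads could be split, were Nfia, Pabpn1, Tspan5, Lyrm4, Pfn1, Irak2, Gsr, Ctsl, Eif4a1, Eef1d, Tug1, Gas5, Rps2, Rpl41, Zfp26, Gm5526 and A630001G21Rik. A few items that the rule named are not reported here. Lists are described by counts and medians, with no test. Alternatives were DESeq2 1.42.0, other scalings, no filter, a replicate block, subsets of replicates, the 8 libraries alone and each library left out, and for 3′ UTRs the longest one per gene or a minimum of 200 bases.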

Additional observations from a re-analysis of the deposited data

Results flagged for a closer look

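In 7 of 98 groups of 4 libraries checked, 1 library stood far from the other 3, where chance alone flags about 1 in 20 such groups. In total RNA with TM7nox, replicate 1 was the lowest for Il1b (183 CPM) and Slfn2 (559 CPM) and the highest for Rprl2 (695 CPM) and for the share of long noncoding RNAs (0.424%). Replicate 2 of total RNA was the highest for Hmox1 (1373 CPM) and the lowest for Pola2 (28.2 CPM). In RIP, replicate 4 was the lowest for Wfdc17 (1.22 CPM).

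The log2 of RIP over RNA differed between treatments, by edgeR's test of the difference itself, for these genes. Against LPS it was higher with TM7nox for Gm5526 (2.89). Against DMSO it was higher for Gm5526 (3.36), Pola2 (2.44), Slfn2 (1.91) and Hnrnpc (1.48), and lower for Eno2 (-3.54), Tnf (-3.05) and A630001G21Rik (-1.07).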

How the results depend on the processing

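Of 1400 values recomputed for 78 named genes, 1342 kept their direction and their side of the threshold, and 58 did not, 46 of them under settings other than total counts alone. The cause of these changes was not tested. Total counts alone, which placed the median of all genes at -1.07, gave 3324 genes higher and 7903 lower, and turned Tnf (-0.40), Il6 (-0.14), Il10 (-0.83), Zfp36 (-0.15), Msr1 (-0.70) and Pola2 (-0.10) to the lower side, and called Ptgs2 (-1.06) and Eno2 (-1.0) lower. DESeq2 and RLE scaling turned Ptgs2 (0.13 in both) and Eno2 (0.21 and 0.20) to the higher side, as did the 8 libraries alone (0.08 and 0.16) and replicates 3 and 4 only for Eno2 (0.31). Replicates 1 and 2 only turned Il10 (-0.05). Leaving out 1 library gave -0.20 to 0.07 for Ptgs2 and -0.47 to 0.33 for Eno2. DESeq2 gave no adjusted p for Rprl2.

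Against LPS, 3 genes were called by DESeq2, 2 with upper-quartile scaling, 2 with total counts alone, 5 with no filter, 0 with replicates 1 and 2 only, 0 with replicates 3 and 4 only, and 1 to 3 with 1 library left out. Against DMSO, DESeq2 called 41, upper-quartile scaling 11, total counts alone 14, no filter 48, replicates 1 and 2 only 0, and fits with 1 library left out 5 to 13. With the replicate block, 2 genes were called against LPS and 37 against DMSO, and Il6 and Rpl24 were called in RIP over RNA. The block changed no other call among the 78 named genes there.

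As paired differences under the block, class shares in percentage points were 26.1 (coding), -3.42 (ribosomal protein), -0.168 (histone), -16.3 (mitochondrial), -5.79 (small noncoding) and -0.429 (pseudogenes), where 4 pairs cannot give an exact permutation p under 0.125. With 1 library left out the smallest exact permutation p is 0.0571, and the differences were 25.1 to 27.3, -3.52 to -3.29, -0.175 to -0.159, -16.8 to -15.7, -6.61 to -4.44 and -0.449 to -0.406. For long noncoding RNAs, totals without mitochondrial genes turned the difference to -0.0319. RNA replicate 1 of DMSO, with 2728534 counts, limits values at low levels in that treatment.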
